A study of Mus musculus with 12 samples.

Results

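Coding sequence (CDS) is the part of an mRNA that ribosomes read into protein. The peaks described here are those whose midpoint lay in the CDS of a protein-coding transcript of GENCODE M21 on the same strand, in 4 peak lists of AGO2-bound RNA from mouse tibialis anterior (TA) muscle. They numbered 290172 of the 713343 listed peaks. By library they were 47821 of 92451 in WT set 1, 42456 of 119859 in KO set 1, 98262 of 244814 in WT set 2 and 101633 of 256219 in KO set 2. The study asked which muscle transcripts miR-486 binds, and used chimeric eCLIP, in which AGO2 is cross-linked to RNA, immunoprecipitated (IP) and sequenced beside a size-matched input. Each set held 1 WT and 1 mir-486 KO total IP library, all from males 6 months old. The KO mice carry a germline CRISPR deletion within the mir-486 hairpin, which lies inside the host gene Ank1. By the labels the WT mice were C57BL/6 and the KO mice FVB N/J, whereas the methods describe backcrossing to C57BL/6J, so strain and genotype cannot be told apart here. By the methods 3 muscles per genotype were used and the work was done in duplicate, but which muscles went into which library is not said, so a spread between the sets may be technical. Libraries further enriched for miR-486 were not analysed here.

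microRNAs guide AGO2 to transcripts mainly through the seed, bases 2 to 8 from their 5′ end, which pairs with a complementary word in the target. Most sites that are known to act lie in 3′ UTRs. Sites in the CDS also bind AGO2, in a region that translating ribosomes cross. Skeletal muscle is rich in the myomiRs miR-1, miR-206, miR-133 and miR-486. miR-1 and miR-206 share 1 seed, as do miR-133a and miR-133b, and RefSeq's GRCm38 table held miR-206-3p and miR-133b-3p of these. Their mature sequences follow, with the seed in capitals, because the words that pair with these seeds, ACATTCC for miR-1/miR-206 and GGACCAA for miR-133, recur throughout the results.
mmu-miR-206-3p: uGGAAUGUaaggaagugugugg
mmu-miR-133b-3p: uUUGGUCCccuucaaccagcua
mmu-let-7a-5p: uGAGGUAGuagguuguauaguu
The let-7 family, with the pairing word CTACCTC, is shown for the sites in Dicer1 described further on. The words of miR-486 and miR-378 were not searched. The other 9 words searched were TGGTGCT (miR-29), TGTTTAC (miR-30), TACTTGA (miR-26), GGCAGCT (miR-22), CTGAGCC (miR-24), ACTGTGA (miR-27), TGAATGT (miR-181), AGTCTTA (miR-499) and ACAGGGT (miR-10), all on the transcript strand only.

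The coding sites that stood highest in all libraries are shown next, read from GRCm38 on the transcript strand and limited to the coding exon, with the pairing word in capitals. They belong to 9 of the 20 sites ranked highest by the lowest of their 4 log2 folds over input, and are shown because they hold a miR-133 or miR-1/miR-206 word.
Yipf6 (chrX:98943552-98943598, plus strand, coding exon 6 of 7): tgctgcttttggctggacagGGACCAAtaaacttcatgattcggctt
Skp1a (chr11:52243687-52243733, plus strand, coding exon 3 of 5): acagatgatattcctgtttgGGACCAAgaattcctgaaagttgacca
Pgam2 (chr11:5803441-5803487, minus strand, coding exon 1 of 3): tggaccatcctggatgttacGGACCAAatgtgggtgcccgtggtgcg
Micu2 (chr14:57971751-57971789, minus strand, coding exon 2 of 12): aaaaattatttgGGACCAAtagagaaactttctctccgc
Rnf115 (chr3:96775678-96775724, plus strand, coding exon 4 of 9): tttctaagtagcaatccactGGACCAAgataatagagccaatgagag
Nmt1 (chr11:103060098-103060144, plus strand, coding exon 9 of 12): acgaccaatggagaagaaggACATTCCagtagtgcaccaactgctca
Mut (chr17:40937122-40937168, plus strand, coding exon 1 of 12): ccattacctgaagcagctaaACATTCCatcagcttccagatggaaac
Psme4 (chr11:30813663-30813692, plus strand, coding exon 12 of 46): atcACATTCCaatttataggaacattttct
Ncor1 (chr11:62329569-62329615, minus strand, coding exon 39 of 45): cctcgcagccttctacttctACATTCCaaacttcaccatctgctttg

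A few facts of the lists bear on what follows. On the plus strand of the Mir486 locus (chr8:23142555-23142682), the WT libraries had 2 and 4 listed peaks, all enriched over input, and both KO libraries had 0, none of these peaks being in a CDS. The 7 myofibre markers, among them Acta1, Ckm and Myh4, held listed CDS peaks in all 4 libraries. Markers of other cell types were also listed in each library, from 18 to 113 CDS peaks for the 4 endothelial markers and up to 331 for the 5 fibroblast markers. In these bulk lists, fewer cells of a type and less bound RNA per cell cannot be told apart. Read depth is unknown, because the lists hold no counts. WT set 1 and KO set 1 stood apart from each other and from set 2 in most values below, so each value is given by library.

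CDS peaks were common but seldom strongly enriched. They made up 51.7% (95% Wilson interval 51.4% to 52.0%) of the listed peaks of WT set 1, 35.4% (35.2% to 35.7%) of KO set 1, 40.1% (39.9% to 40.3%) of WT set 2 and 39.7% (39.5% to 39.9%) of KO set 2. The 2 libraries of set 2 lay close together, and those of set 1 lay above and below them. WT was above KO by 16.3 percentage points in set 1 and by 0.471 in set 2. The mean share was 45.9% ± 8.19 (SD, n = 2) in WT and 37.5% ± 3.00 (SD, n = 2) in KO. With 2 libraries against 2, an exact two-sided permutation test cannot go below p = 0.33, so no test between genotypes was made on any value. These intervals cover counting error only.

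A peak was called enriched when its deposited log2 fold over input and its deposited −log10 p were both at least 3. In WT set 1, 1518 CDS peaks were enriched, or 3.17% (3.02% to 3.34%), beside 3.57% of all listed peaks. In KO set 1 the count was 112, or 0.264% (0.219% to 0.317%), beside 0.848% of all listed peaks. In WT set 2, 1013 CDS peaks were enriched, or 1.03% (0.970% to 1.10%), beside 1.42% of all listed peaks. In KO set 2, 963 were enriched, or 0.948% (0.890% to 1.01%), beside 1.23% of all listed peaks. The CDS share was below that of all listed peaks in 4 of 4 libraries. WT was above KO by 2.91 percentage points in set 1 and by 0.0834 in set 2. The WT libraries averaged 2.10% ± 1.52 (SD, n = 2) and the KO libraries 0.606% ± 0.483 (SD, n = 2).

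Peaks in 3′ UTRs, read the same way, were enriched more often. Their enriched share was 5.90% in WT set 1, 1.64% in KO set 1, 3.55% in WT set 2 and 3.55% in KO set 2. The CDS share lay below it in 4 of 4 libraries, by a mean of 2.31 percentage points (−2.31 ± 0.629, SD, n = 4 libraries). An exact two-sided sign-flip permutation test over the libraries gave p = 0.13, the smallest p that 4 libraries allow. Folds also lay lower at the median in each library, as the plot of enriched shares and log2 folds shows. The median log2 fold of CDS peaks was 0.68 in WT set 1, 0.12 in KO set 1, 0.21 in WT set 2 and 0.18 in KO set 2, against 0.87, 0.61, 0.60 and 0.56 for 3′ UTR peaks. CDS peaks were the more numerous in the lists, and they supplied 46.0%, 11.0%, 29.1% and 30.6% of all enriched peaks in WT set 1, KO set 1, WT set 2 and KO set 2.

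**Figure D1:**
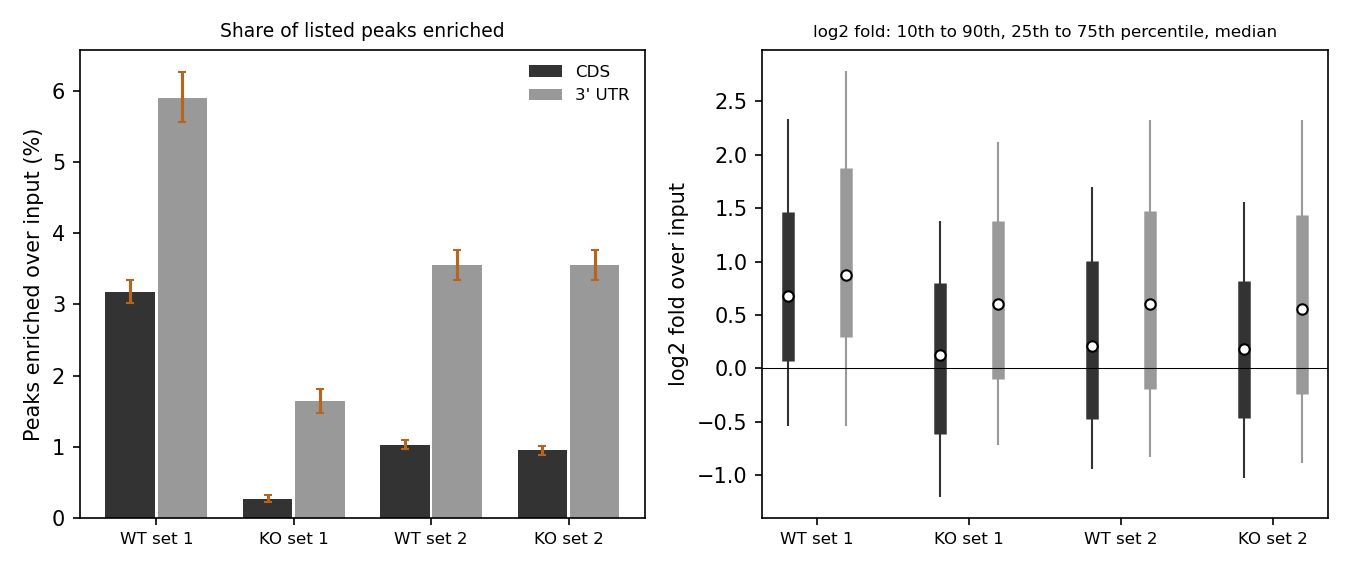
Left: percent of listed CDS peaks (dark bars) and 3′ UTR peaks (grey bars) that were enriched over input in each of the 4 libraries, with 95% Wilson intervals. Right: log2 fold over input of the same peaks, with the median as a circle, the 25th to 75th percentile as a thick line and the 10th to 90th as a thin line. The CDS value lies below the 3′ UTR value in every library, and KO set 1 has the lowest share, at 0.264%.

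Enriched CDS peaks were longer than CDS peaks at large, with medians of 100, 109, 82 and 83 nt in WT set 1, KO set 1, WT set 2 and KO set 2 against 70, 66, 70 and 72 nt for all CDS peaks. Between 40.2% and 67.2% of the enriched peaks of a library adjoined or overlapped another listed CDS peak, and such pieces often carry the same value, so the peaks outnumber the separate stretches. From 33.9% to 37.0% of listed CDS peaks ran past the edge of their coding exon in 3 libraries, and 30.8% in KO set 1. Among enriched peaks this share was 54.9% in WT set 1, 58.0% in KO set 1, 48.2% in WT set 2 and 45.1% in KO set 2.

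Cut into 10 equal bins from start to stop codon, each bin of the CDS held between 8.82% and 11.5% of a library's listed CDS peaks. The bin next to the stop codon held 152 of the 1518 enriched peaks of WT set 1, near its 9.39% of listed ones. In the other libraries that bin held more of the enriched than of the listed peaks, 17.0% (19 peaks) against 9.88% in KO set 1, 14.9% against 8.82% in WT set 2 and 14.2% against 8.82% in KO set 2. Enriched peaks also lay within 10 nt of a coding exon edge more often than listed ones, at 9.88% against 4.93% in WT set 1, 8.93% against 5.69% in KO set 1, 19.6% against 9.0% in WT set 2 and 18.3% against 8.60% in KO set 2. At the median, though, enriched peaks lay farther from the edge in every library. Their medians were 48, 56.5, 42 and 43 nt in WT set 1, KO set 1, WT set 2 and KO set 2. Those of listed peaks were 44, 43, 39 and 40 nt. None of these patterns was tested.

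Words for the seeds of miR-1/miR-206 and miR-133 were more frequent in enriched CDS peaks than in the rest. Each peak was searched together with its flanks of 25 nt. The miR-1/miR-206 word was present in 136 of 1518 enriched CDS peaks of WT set 1, or 8.96% (7.62% to 10.5%), against 1.72% of the CDS peaks that were not enriched. In KO set 1 it was present in 21 of 112, or 18.8% (12.6% to 27.0%), against 1.58%. In WT set 2 it was present in 124 of 1013, or 12.2% (10.4% to 14.4%), against 1.12%. In KO set 2 it was present in 123 of 963, or 12.8% (10.8% to 15%), against 1.12%. The enriched share was 5.21 to 11.8 times the other, and it was the higher in each library. The intervals count adjoining pieces separately, and with adjoining peaks merged the mean difference was 13.4 percentage points.

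The miR-133 word behaved alike. It was present in 8.30%, 17.9%, 12.6% and 13.3% of the enriched CDS peaks of WT set 1, KO set 1, WT set 2 and KO set 2, against 1.97%, 1.79%, 1.45% and 1.42% of the others. The mean difference was 11.8 ± 4.09 percentage points for miR-1/miR-206 and 11.4 ± 3.99 for miR-133 (SD, n = 4 libraries), above 0 in 4 of 4 libraries for both. An exact two-sided sign-flip permutation test gave p = 0.13 for each, the smallest p possible, and 0.25 after Benjamini-Hochberg adjustment over the 12 families searched. Windows of 1 length, reaching 50 nt to either side of the midpoint, remove the difference in peak length. Of 215692 tiles of this length along the coding sequence of all 11852 genes with a listed CDS peak, 0.642% held the miR-1/miR-206 word, 0.865% the miR-133 word, and 0.258% to 1.86% each of the other words. Around peak midpoints such windows gave 8.70%, 17.9%, 10.6% and 10.9% of enriched peaks for miR-1/miR-206 against 0.889% to 1.57% of the others.

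**Figure D2:**
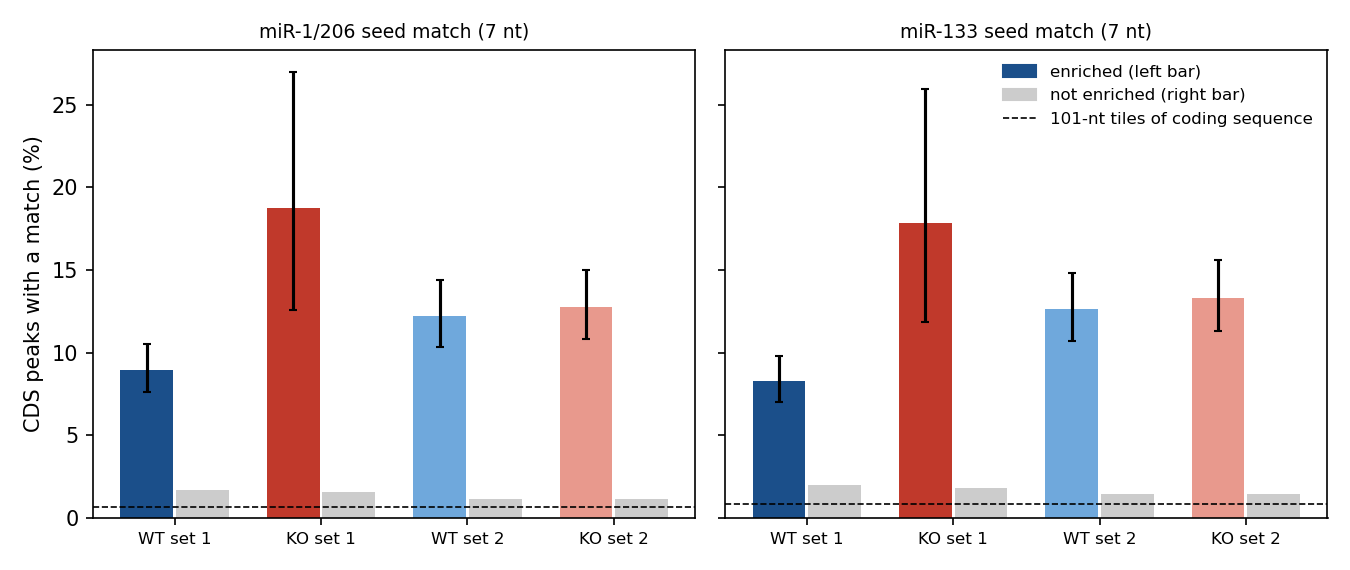
Percent of CDS peaks, extended by 25 nt on each side, that hold the 7-nt word pairing with the miR-1/miR-206 seed (left) or the miR-133 seed (right), for enriched peaks (coloured bars, 95% Wilson intervals) and other CDS peaks (grey bars) of each library. The dashed line is the share among tiles of coding sequence reaching 50 nt to either side of their centre, 0.642% and 0.865%. All 8 coloured bars stand above the grey bars beside them, from 8.30% to 18.8%.

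Read the other way, CDS peaks with either word had higher folds. Of the 1946 CDS peaks of WT set 1 with a miR-1/miR-206 or miR-133 word, 13.3% were enriched, against 2.75% of those with neither. The same shares were 2.82% against 0.173% in KO set 1, 9.05% against 0.802% in WT set 2 and 8.85% against 0.725% in KO set 2. Their median log2 fold was 1.68, 0.91, 1.47 and 1.39 in WT set 1, KO set 1, WT set 2 and KO set 2, against 0.68, 0.12, 0.17 and 0.13 for peaks with neither. Words followed by an A, the base that completes an 8-nt site, had higher medians than words without it in 4 of 4 libraries for both families. For miR-1/miR-206 the medians were 1.87 against 1.51 in WT set 1, 1.33 against 0.80 in KO set 1, 1.77 against 1.40 in WT set 2 and 1.74 against 1.24 in KO set 2. Both words together were rare, in 0 to 5 enriched CDS peaks of a library. Between 63.4% and 83.0% of enriched CDS peaks of a library held neither word.

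Words near enriched peaks lay around the middle of the peak. Within 25 nt of the midpoint stood 103 of the 153 miR-1/miR-206 words found within 97 nt in WT set 1, 11 of 23 in KO set 1, 72 of 150 in WT set 2 and 62 of 148 in KO set 2. For miR-133 the counts were 85 of 159, 11 of 26, 69 of 162 and 76 of 170. The plot of matches by distance shows the density falling away beyond about 50 nt on both sides. The peaks that were not enriched lay lower near the midpoint but also rose towards it. For miR-1/miR-206 in WT set 1 they went from 0.069 matches per 100 peaks at −90 nt to 0.391 at the midpoint. Of the words near peaks that were not enriched, 34.5% to 52.8% for miR-1/miR-206 and 37.5% to 52.5% for miR-133 lay within 25 nt of the midpoint. Near enriched peaks the shares were 41.9% to 67.3% and 42.3% to 53.5%. In KO set 1 the miR-133 share was the lower near enriched peaks, 42.3% against 47.8%.

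**Figure D3:**
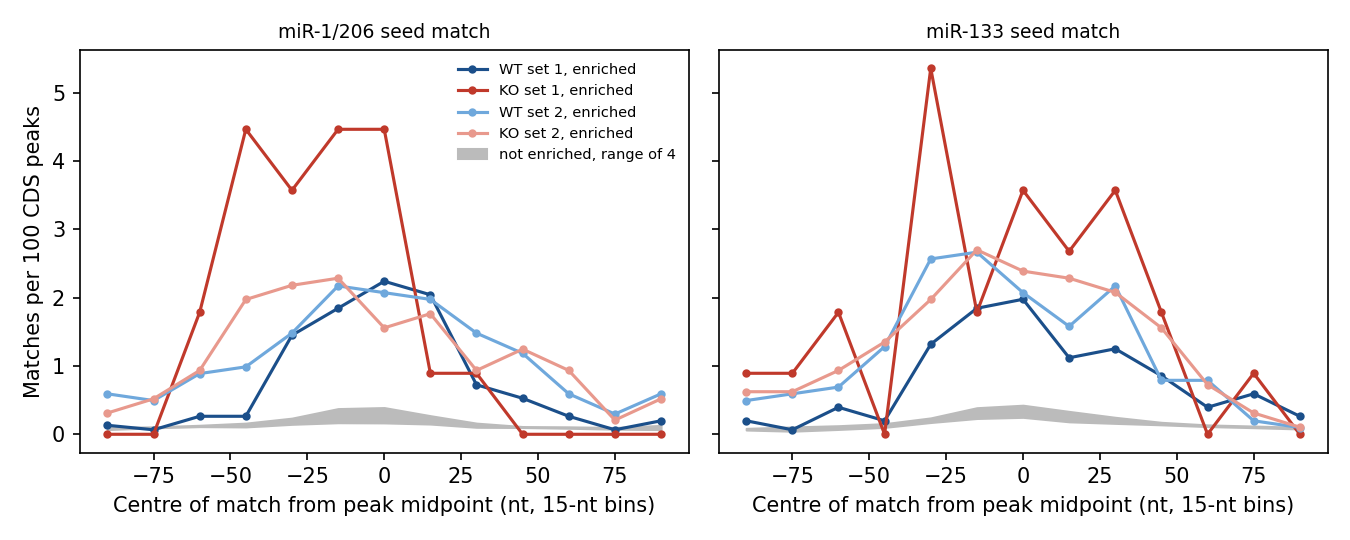
Matches per 100 CDS peaks by the distance of the match from the peak midpoint, in 15-nt bins, negative towards the 5′ end, for miR-1/miR-206 (left) and miR-133 (right). Coloured lines are the enriched CDS peaks of each library and the grey band is the range over the 4 libraries of the other CDS peaks. The lines are highest within about 50 nt of the midpoint, and those of KO set 1 rest on 23 and 26 matches.

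The reading frame of the miR-1/miR-206 words near enriched peaks was close to that in the coding sequence at large. In 54.9% of the 133 miR-1/miR-206 words that lay whole in the coding exon near enriched peaks of WT set 1, the first base was the second base of a codon. This was also so for 53.2% of 109 words in WT set 2, 55.0% of 109 in KO set 2, and 12 of 21 in KO set 1. Among all 1511 miR-1/miR-206 words in the coding sequence of genes with a listed CDS peak it was so for 51.8%. For miR-133 the second codon position took 38%, 38.3% and 40.9% in WT set 1, WT set 2 and KO set 2 and 4 of 20 words in KO set 1, against 41.5% of all 2027 words. The first position took 25.6%, 33.3% and 35.4% and 5 of 20 words in the same order, against 24.4%. The third took 36.4%, 28.3% and 23.6% and 11 of 20 words, against 34.1%. These frame differences for miR-133 were not tested.

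Other families showed smaller differences. The let-7 word was present in 5.07%, 2.68%, 5.03% and 5.19% of the enriched CDS peaks of WT set 1, KO set 1, WT set 2 and KO set 2, against 2.19%, 1.73%, 1.49% and 1.49% of the others. The KO set 1 value is 3 peaks. Its mean difference was 2.77 ± 1.27 percentage points (SD, n = 4 libraries), and the mean differences were 1.73 ± 0.994 for miR-29, 1.82 ± 0.958 for miR-26 and 1.06 ± 0.718 for miR-22. These 4 families were above 0 in 4 of 4 libraries, each with an exact p of 0.13 and an adjusted p of 0.25 in the sign-flip permutation test. miR-30, miR-27, miR-181 and miR-499 were above 0 in 3 of 4 libraries, miR-10 in 2 and miR-24 in 1, and their mean differences ran from −0.43 to 0.64 percentage points. In 3′ UTR peaks the enriched share was 5.13 to 8.67 times the other for miR-1/miR-206 and 3.16 to 5.23 times for miR-133. The CDS ratios for miR-133 ran from 4.22 to 9.96.

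Sites enriched in several libraries were sought next. Of the enriched CDS peaks of WT set 2, 48.4% (45.3% to 51.4%) overlapped an enriched CDS peak of KO set 2, the library of the other genotype in the same set, and 49.6% (46.5% to 52.8%) of those of KO set 2 overlapped one of WT set 2. Of those of WT set 2, 34.3% (31.4% to 37.2%) overlapped one of WT set 1. Of those of KO set 1, 60.7% (51.5% to 69.3%) overlapped one of KO set 2, and 9.24% (7.57% to 11.2%) of those of KO set 2 overlapped one of KO set 1. For WT set 1, the longest list of enriched peaks, 17.9% (16.1% to 19.9%) overlapped one of WT set 2. In 3′ UTRs 37.4% of enriched peaks of WT set 1 were found again in WT set 2, 41.2% of WT set 2 in WT set 1, and 52.9% of KO set 1 in KO set 2. Lists of unequal length limit these shares, since KO set 1 has only 112 enriched CDS peaks to be matched.

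The WT set 1 peaks that recurred carried the myomiR words more often. Of 201 peaks, in 129 genes, enriched also in both libraries of set 2, 33.8% (27.6% to 40.6%) held a miR-1/miR-206 or miR-133 word. Of 1141 enriched in neither library of set 2, 11.2% (9.52% to 13.2%) did. Of 46 peaks, in 35 genes, enriched in all 4 libraries, 30.4% (19.1% to 44.8%) did. Among these 35 genes, taking the highest ranked peak of each, 7 held a miR-1/miR-206 word, 7 a miR-133 word, 4 a word of another family alone and 17 none of the 12 searched.

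The 20 leading sites ranged from 3.17 to 8.13 in log2 fold over all libraries. Their genes have varied roles. Skp1a, a subunit of SCF ubiquitin ligases, had log2 folds of 4.23, 3.83, 4.31 and 4.11 in WT set 1, KO set 1, WT set 2 and KO set 2, the narrowest range among the miR-133 sites shown. Yipf6, a membrane protein of the Golgi, had 3.96, 4.53, 4.55 and 3.83. Pgam2, the muscle phosphoglycerate mutase of glycolysis and one of the study's targets, had 6.05, 3.6, 3.6 and 3.71, with WT set 1 above the other libraries. Micu2, a regulator of the mitochondrial calcium uniporter, had 3.24, 4.35, 3.29 and 3.33, highest in KO set 1. Rnf115, a ubiquitin ligase, had 3.24, 4.23, 3.61 and 3.33.

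Among the miR-1/miR-206 sites, Nmt1, an N-myristoyltransferase, had log2 folds of 3.98, 3.63, 3.75 and 4.45 in the same order of libraries. Mut, the mitochondrial methylmalonyl-CoA mutase, had 5.46, 4.19, 3.90 and 3.39. Psme4, a proteasome activator, had 3.99, 3.69, 3.37 and 4.02. Ncor1, a nuclear receptor corepressor, had 4.07, 3.27, 3.91 and 3.89. At Nmt1 and Psme4 WT was above KO in set 1 and below it in set 2. At Mut and Ncor1 WT was above KO in both sets, at Ncor1 by almost nothing in set 2.

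The rest of the 20 held neither word. The highest was in Mos, an oocyte kinase gene of a single coding exon, with log2 folds of 4.60, 6.55, 7.21 and 8.13. Its peaks covered 25 nt in WT set 1 and the same 24 nt (chr4:3871280-3871303, minus strand) in the other libraries, near the length of a microRNA, and it is printed because no seed word of the 12 families lies in it.
Mos (chr4:3871280-3871303, minus strand): gtttggggaagtgcctcaagtatt
Usf3 had 5.38, 4.18, 5.29 and 4.47, and Hipk1, a nuclear kinase, had 4.87, 4.16, 4.86 and 4.31, both with KO below WT in each set. Synm, which encodes the intermediate filament protein synemin, had 5.75, 3.91, 5.23 and 4.25. Pdhb, a subunit of pyruvate dehydrogenase, had 4.89, 3.72, 4.33 and 4.24, also with KO below WT in each set. The site named Gm20390 lies where its coding sequence overlaps that of Nme1, so its reads cannot be given to either gene, and it had 4.21, 3.63, 4.22 and 4.82. Zfhx3 (3.6, 3.53, 4.23 and 4.12) held a let-7 word and Zranb1 (4.45, 3.75, 3.17 and 3.25) a miR-29 word. Wdr33, Nmrk2 and Zfr complete the 20, with lowest log2 folds of 3.63, 3.38 and 3.18.

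**Figure D4:**
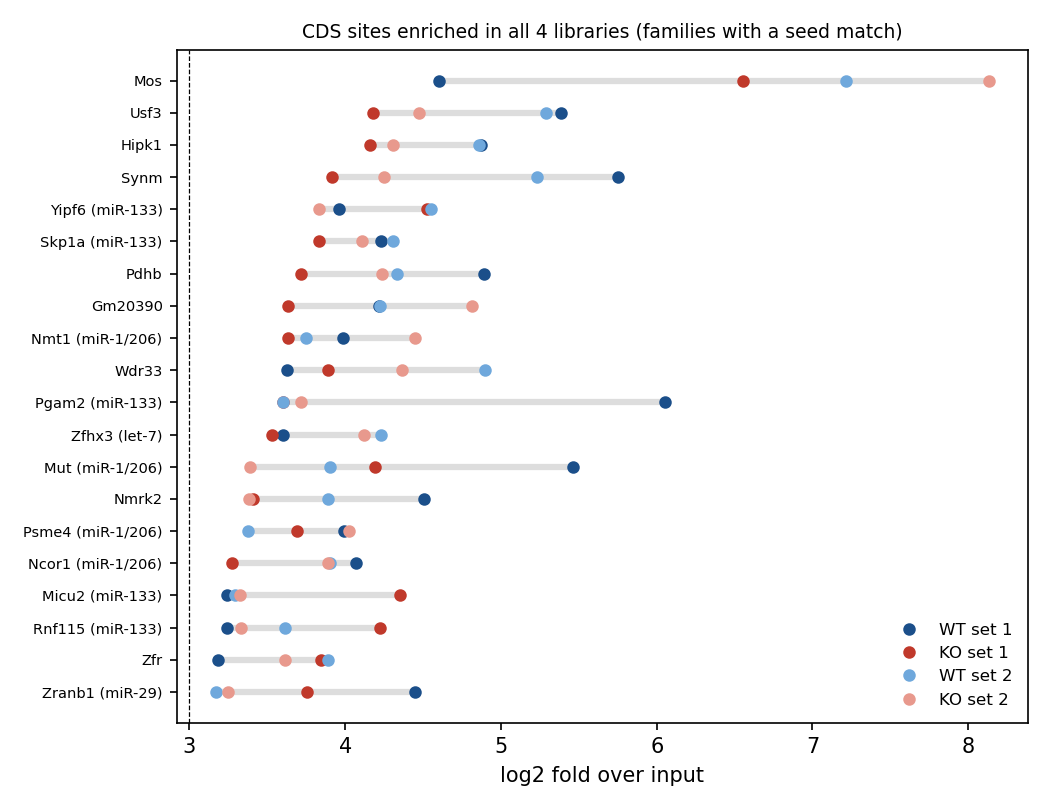
log2 fold over input at the 20 CDS sites with the highest value of the lowest of the 4 libraries, 1 site per gene, with 1 point per library and the families whose seed word the site holds in brackets. The dashed line is the threshold of 3. Values run from 3.17 to 8.13, and Mos has the widest range.

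Components of the microRNA pathway itself had enriched coding sites above the background share in WT set 1 and both libraries of set 2. Of the 12 genes listed for this pathway, 4 had enriched CDS peaks in WT set 1, WT set 2 and KO set 2, namely Tnrc6a, Tnrc6b, Tnrc6c and Dicer1. Their peaks were 16 of 119 listed CDS peaks in WT set 1 (13.4%), 19 of 238 in WT set 2 (7.98%), 25 of 261 in KO set 2 (9.58%), beside 3.17%, 1.03% and 0.948% of all CDS peaks. KO set 1 had none, which allows a share of up to 2.40%, and its background of 0.264% lies below that limit. The TNRC6 proteins bind Argonaute and recruit the enzymes that silence the mRNA, and Dicer1 cuts the hairpin precursors. In Tnrc6b the leading peak (chr15:80879848-80879974) had log2 folds of 4.87 in WT set 1, 5.61 in WT set 2 and 5.99 in KO set 2, and an overlapping peak of KO set 1 had 2.48. It held none of the words searched. In Dicer1, coding exon 20 of 26 held 2 let-7 words that lay in adjoining peaks.
Dicer1 (chr12:104702677-104702723, minus strand): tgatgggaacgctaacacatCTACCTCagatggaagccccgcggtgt
Dicer1 (chr12:104702785-104702831, minus strand): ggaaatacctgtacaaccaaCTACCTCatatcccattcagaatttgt
The first of these peaks had log2 folds of 4.33, 3.34 and 3.42 in WT set 1, WT set 2 and KO set 2, and the second 4.04, 3.33 and 3.42. Both overlapped a KO set 1 peak at 2.38, below the threshold.

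Ttn, which encodes the giant sarcomeric spring protein titin, had the most listed CDS peaks, 648, 833, 1390 and 1443 in WT set 1, KO set 1, WT set 2 and KO set 2, along a coding sequence of 105639 nt. Of these 41, 0, 10 and 9 were enriched, and 18, 0, 8 and 7 of the enriched peaks held a miR-1/miR-206 or miR-133 word. A stretch in coding exons 333 and 334 of 346 held 2 miR-133 words at sites enriched in 3 libraries, and another such site lay in exon 286.
Ttn (chr2:76718427-76718473, minus strand): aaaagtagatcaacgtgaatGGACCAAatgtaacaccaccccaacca
Ttn (chr2:76718055-76718101, minus strand): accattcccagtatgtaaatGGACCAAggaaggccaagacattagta
Ttn (chr2:76766471-76766517, minus strand): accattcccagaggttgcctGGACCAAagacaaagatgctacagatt
At the first, the higher of the adjoining peaks that touch the word had log2 folds of 4.76, 2.59, 3.50 and 3.66 in WT set 1, KO set 1, WT set 2 and KO set 2. At the second the values of the peak that holds the word were 3.35, 2.07, 3.17 and 3.36, and at the third 3.96, 1.88, 3.22 and 3.42. KO set 1 was below the threshold at each.

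Other long transcripts were listed often and enriched seldom. Neb, encoding nebulin, had 269, 252, 523 and 524 listed CDS peaks and 7, 0, 0 and 0 enriched ones. Ryr1, the calcium release channel, had 177, 169, 285 and 328 listed and 1, 0, 0 and 0 enriched. Dst, Ubr4, Pde4dip and Dync1h1 had 0 to 2 enriched peaks in any library. All of these, with Ttn, Myh4 and Myh1, were among the 10 genes with the largest shares of listed CDS peaks. The 10 genes held from 3.56% to 4.70% of the listed CDS peaks of a library. They held 110 enriched peaks in WT set 1, or 7.25%, and 0, 10 and 9 in KO set 1, WT set 2 and KO set 2, where the 10 and 9 were all in Ttn.

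Abundant contractile and metabolic mRNAs had enriched CDS peaks mainly in WT set 1. For thick filament genes 109 of 622 listed CDS peaks were enriched there, or 17.5%, beside 3.17% of all its CDS peaks, with a median log2 fold of 1.68 beside 0.68. In KO set 1, WT set 2 and KO set 2 the counts were 0 of 620, 3 of 1043 and 6 of 960. The 0 of 620 allows a share of up to 0.484%, and the median log2 fold of these genes in KO set 1 was 0.08, beside 0.12 for all its CDS peaks. Myh4 and Myh1, the fast myosin heavy chains of type 2B and 2X fibres, had 30 and 26 enriched CDS peaks in WT set 1 and 0 in each other library. Myh2, the type 2A chain, had 16, 0, 3 and 4 in WT set 1, KO set 1, WT set 2 and KO set 2. Thin filament genes had 10 of 166 enriched in WT set 1 (6.02%), among them 4 in Tnnc2 and 3 in Lmod2. In KO set 1, WT set 2 and KO set 2 they had 0 of 217, 0 of 278 and 0 of 283. These allow shares of up to 1.38%, 1.08% and 1.06%, above the 0.264%, 1.03% and 0.948% of all CDS peaks. The 0 counts therefore cannot show a share below the background.

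Metabolic lists also had their highest shares in WT set 1. Of CDS peaks in 30 genes of mitochondrial oxidation, 82 of 419 were enriched in WT set 1 (19.6%) and 0 of 440 in KO set 1 (up to 0.682%). WT set 2 had 4 of 740 (0.541%) and KO set 2 had 6 of 802 (0.748%), below the 1.03% and 0.948% of all CDS peaks. Uqcrc1, a core subunit of respiratory complex III, had 13 of these in WT set 1, and Mdh1 and Ogdh, enzymes of malate and oxoglutarate oxidation, had 7 each, all with 0 elsewhere. Glycolysis and glycogen genes had 66 of 462 enriched in WT set 1 (14.3%), 6 of 459 in KO set 1 (1.31%), 15 of 751 in WT set 2 (2.00%) and 20 of 795 in KO set 2 (2.52%). Unlike those of mitochondrial oxidation, these shares were above the 3.17%, 0.264%, 1.03% and 0.948% of all CDS peaks in every library. Eno3, the muscle enolase, had 12, 0, 4 and 4, Pgam2 had 2, 4, 5 and 4, Gbe1, the glycogen branching enzyme, had 5, 2, 2 and 2, and Pfkm had 11, 0, 0 and 0. Pgam2 and Gbe1 had enriched CDS peaks in all 4 libraries. Ampd1, the muscle AMP deaminase, had 5, 0, 1 and 6.

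The next lists had fewer enriched peaks in WT set 1. Their shares follow in library order, beside 3.17%, 0.264%, 1.03% and 0.948% of all CDS peaks. Translation factors had 5.06%, 0.391%, 2.19% and 1.61%. The KO set 1 value is 1 peak of 256, too few to set apart from the background, and the other shares were above it. Chaperones had 8.55%, 0%, 2.35% and 3.72%, and Z-disc genes 5.99%, 0%, 1.14% and 0.816%. In KO set 1 the 0 of 125 and 0 of 354 allow shares of up to 2.40% and 0.847%. Among Z-disc genes Pdlim3, which encodes a PDZ and LIM domain protein, had 5, 0, 6 and 4 enriched CDS peaks in WT set 1, KO set 1, WT set 2 and KO set 2, the most of that list. One of its recurrent peaks held a miR-1/miR-206 word and had log2 folds of 4.99, 3.23 and 3.27 in WT set 1, WT set 2 and KO set 2, beside 1.66 in KO set 1.
Pdlim3 (chr8:45913796-45913842, plus strand): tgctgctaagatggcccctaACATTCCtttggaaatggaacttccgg
Dnajb1, an HSP40 cochaperone, had 2, 0, 2 and 4 enriched CDS peaks, and 1 of them held both myomiR words, with log2 folds of 4.90, 2.89, 3.88 and 5.60. The stretch printed next shows its miR-1/miR-206 word, and its miR-133 word lies outside that stretch.
Dnajb1 (chr8:83610271-83610317, plus strand): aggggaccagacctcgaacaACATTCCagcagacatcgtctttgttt
Hspa9, the mitochondrial HSP70, had 3, 0, 3 and 3. Among translation factors Pabpc1, the poly(A) binding protein, had 2, 0, 5 and 2 and Eif4g3 had 1, 1, 4 and 1, the latter enriched in all 4 libraries. Calcium handling genes had 12 of 532 enriched (2.26%), 0 of 532 (up to 0.564%), 1 of 840 (0.119%) and 2 of 929 (0.215%), led by Cacna1s. In WT set 1 and both libraries of set 2 these shares were below those of all CDS peaks, 3.17%, 1.03% and 0.948%, and the background in KO set 1 was 0.264%. Genes of protein turnover had 18 of 205 (8.78%), 0 of 202 (up to 1.49%), 1 of 332 (0.301%) and 1 of 312 (0.321%), above that background in WT set 1 and below it in set 2, with Capn3, the muscle calpain, at 2, 0, 1 and 1.

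Genes of the dystrophin complex and membrane had 5 of 496, 0 of 436, 0 of 957 and 1 of 1013 enriched CDS peaks, and Dmd itself had 0 in all libraries among 57 to 116 listed. Collagens and other matrix genes had 7 of 316, 1 of 380, 3 of 1005 and 2 of 846, where the 1 in KO set 1 was in Fn1, which encodes fibronectin and had 1, 1, 1 and 0. The dystrophin complex shares of 1.01% in WT set 1 and 0.0987% in KO set 2 and the matrix shares of 2.22%, 0.299% and 0.236% in WT set 1, WT set 2 and KO set 2 lay below the 3.17%, 1.03% and 0.948% of all CDS peaks there. In KO set 1 the matrix share, 0.263%, was level with the 0.264% of all CDS peaks. Blood cell genes had 3 of 32 (9.38%), 0 of 10, 2 of 126 (1.59%) and 1 of 90 (1.11%), on few listed peaks. The 3 in WT set 1 were single peaks in the globin genes Hba-a1, Hbb-bs and Hbb-bt, of which the Hbb pair is so alike that reads may be shared. Endothelial, fat and nerve genes had 1 enriched CDS peak in all, in Flt1 in KO set 2 (0.529% of 189, below the background).

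**Figure D5:**
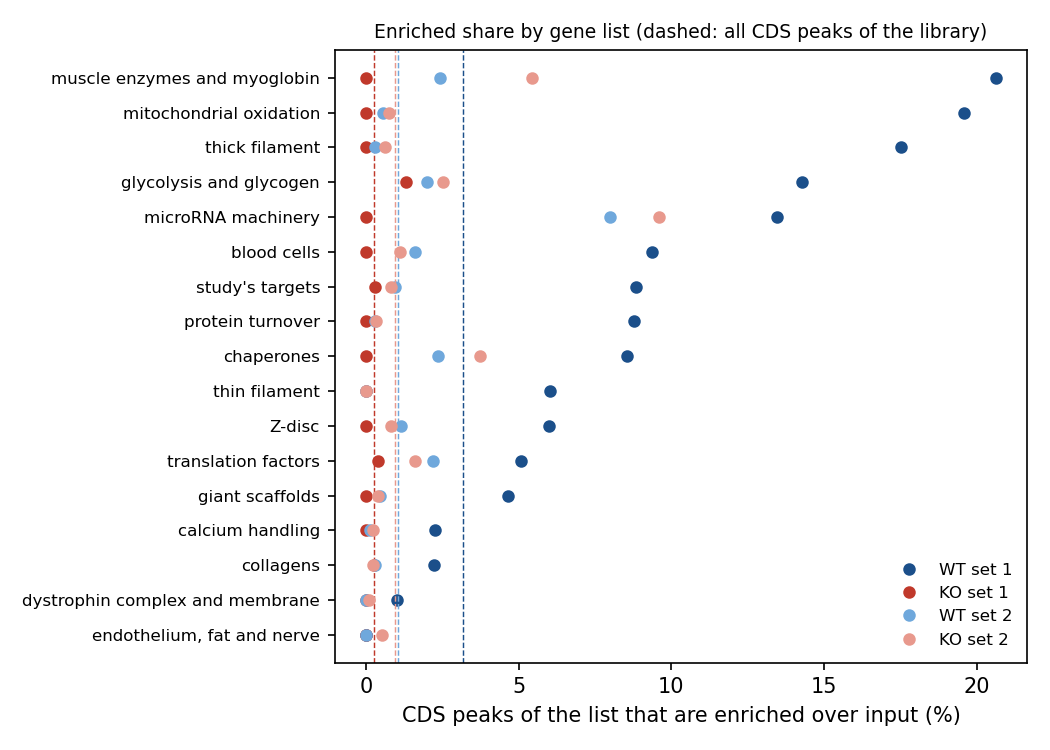
Percent of the listed CDS peaks of each gene list that were enriched over input, with 1 point per library; dashed lines give the share among all CDS peaks of each library (3.17%, 0.264%, 1.03% and 0.948%). The row of collagens holds other matrix genes too. WT set 1 lies to the right of the other libraries in 16 of the 17 lists, from 1.01% to 20.6%.

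The 18 genes the study named as miR-486 targets all held listed CDS peaks in all 4 libraries. That list was chosen by the study on these samples and is not independent of them. Enriched CDS peaks were found in 10 of the 18 in WT set 1, 1 in KO set 1, 6 in WT set 2 and 4 in KO set 2, and the 1 in KO set 1 was Pgam2. Over all genes with a listed CDS peak the shares were 9.55%, 1.09%, 5.03% and 4.81%. By peaks, 8.85% of the list's CDS peaks were enriched in WT set 1, 0.302% in KO set 1, 0.947% in WT set 2 and 0.798% in KO set 2. The shares of all CDS peaks were 3.17%, 0.264%, 1.03% and 0.948%. By peaks the list was thus near the background in all but WT set 1. By genes it was above the background in each library, in KO set 1 through Pgam2 alone. Ttn held most of the list's CDS peaks, 648 of 1085 in WT set 1 and 833 of 1323 in KO set 1. In WT set 2 it held 1390 of 2218 and in KO set 2 1443 of 2255. Ttn, Myh4, Atp5a1 and Pgam2 had the most enriched CDS peaks. Atp5a1, the alpha subunit of ATP synthase, had 7, 0, 2 and 4. Mt2, a metallothionein, had 4, 1, 4 and 2 listed CDS peaks with medians of 2.29, 1.61, 1.68 and 1.06, and 1 enriched peak, in WT set 2. Eif4g1, Naca, Auh, Trim63, Pygm, Actn3 and Tnnc2 had between 1 and 5 enriched CDS peaks in all, and Lamp2, Bhlhe40, Myom1, Bin1, Camk2a and Phtf2 had 0. Ank1, the host gene of mir-486, had 21, 15, 36 and 39 listed CDS peaks with medians of 1.20, 1.14, 1.25 and 1.12, close to each other in all libraries, and 1 enriched peak, in WT set 1.

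Genes with an enriched coding site had one in the 3′ UTR more often than genes without. Of the 819 genes with enriched CDS peaks in WT set 1, 107 also had an enriched 3′ UTR peak (13.1%), against 6.94% of the genes with listed but no enriched CDS peaks. In KO set 1 the shares were 11 of 86 (12.8%) against 2.57%, in WT set 2 81 of 542 (14.9%) against 5.12%, and in KO set 2 83 of 519 (16.0%) against 5.24%. The share was higher in 4 of 4 libraries. These shares take no account of how many peaks a gene had listed, and the genes compared include some with no listed 3′ UTR peak. Regions were read at peak midpoints, so adjoining peaks at a stop codon can count in both regions. The part of these in the difference was not tested. Most genes with enriched CDS peaks had a single one, from 58.3% of them in WT set 2 to 77.9% in KO set 1.

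The direct lists compare the 2 IP libraries of a set with each other, WT over KO at WT peaks and KO over WT at KO peaks. In set 1, 266 of 47820 CDS peaks passed both thresholds for WT over KO, or 0.556% (0.493% to 0.627%), beside 0.469% of all listed peaks. For KO over WT 17 of 42457 passed, or 0.0400% (0.0250% to 0.0641%), beside 0.179% of all listed peaks. In set 2, 13 of 98265 passed for WT over KO, or 0.0132% (0.00773% to 0.0226%), beside 0.0192% of all listed peaks. For KO over WT 9 of 101642 passed, or 0.00885% (0.00466% to 0.0168%), beside 0.0144% of all listed peaks. Set against each other on the log2 scale, the WT-over-KO percent exceeded the KO-over-WT percent by 3.8 in set 1 but by 0.58 in set 2. Their mean, 2.19 ± 2.27 (SD, n = 2), was smaller than the spread. The median log2 fold at CDS peaks of set 1 was 0.82 in the WT-over-KO list and −0.16 in the KO-over-WT list. In set 2 these medians were 0.05 and 0.04. At 3′ UTR peaks both set 1 medians were above 0, at 0.54 and 0.43.

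No CDS peak passed both thresholds in the same direction in both sets. Few could do so. Of the set 2 peaks past the thresholds, 1 of 13 for WT over KO and 2 of 9 for KO over WT overlapped a listed set 1 peak. The absence of shared peaks therefore cannot show whether a difference recurs, and the same count over all listed peaks is not given here. Of the WT-over-KO peaks, 44 of the 266 in set 1 and 4 of the 13 in set 2 were also enriched over input. Of the KO-over-WT peaks 0 were, in either set. Of the 266 set 1 peaks, 235 overlapped a listed peak of the set 2 list, where their median log2 fold was −0.05 and 105 were above 0. The 5 genes with the highest set 1 folds for WT over KO were Arrdc2, an arrestin domain protein (6.86), the metallothioneins Mt2 (6.82) and Mt1 (5.44), Deptor, an inhibitor of mTOR (5.37), and Sln, which encodes sarcolipin, a regulator of the calcium pump (5.07). At the overlapping peaks of set 2 these were −0.45 in Arrdc2, 1.71 in Mt2, 0.76 in Mt1, 0.21 in Deptor and −1.10 in Sln. Over input the set 1 peaks of these genes had 2.40, 2.21, 2.89, 4.08 and 0.97 in the same order. In set 2 the highest were Chrna10 (4.44), Il9r (4.29), Postn (4.03), Gucy1a2 (3.82) and Dbnl (3.82), the last pair tied with H2-Eb1. Of the 5 named, a set 1 peak overlapped that in Dbnl alone, at 0.16.

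For KO over WT the 5 genes with the highest folds in set 1 were Lepr, the leptin receptor (4.30), Txlnb (4.09), Alb, the plasma protein albumin (4.09), 2310002L09Rik (4.06) and Usf3 (4.01). Set 2 peaks overlapped those in Lepr at 0.46, Txlnb at 0.35 and 2310002L09Rik at −0.28. In set 2 they were Tmed1, Dkk3 and Slc41a1 (4.05 each), Kat2b (3.88) and Sart1 (3.78), and the set 1 list had an overlapping peak in Tmed1 alone, at −1.16. Over input the set 1 peaks named had 3.26, −1.12, −1.54, 1.44 and 1.38. Those of set 2 had −0.05, 1.09, 0.24, 0.24 and 0.82. In the direct comparisons, then, the 5 leading genes of each set and direction were different ones.

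Enriched CDS peaks with and without myomiR words had direct folds close to each other in set 2 and at the WT peaks of set 1. In set 2, enriched peaks of WT with a miR-1/miR-206 word had a median WT-over-KO log2 fold of 0.01 (n = 124), those with a miR-133 word −0.01 (n = 128) and those with neither 0.09 (n = 766). In set 1 the medians were 1.44, 1.41 and 1.36 (n = 1256 for the last). At the KO peaks the KO-over-WT medians were 0.01, 0.05 and 0.05 in set 2 (n = 123, 128 and 716). In set 1 they were −1.10, −0.72 and −0.53, over 21, 20 and 71 peaks.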

How the data were processed

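The authors processed reads with UMI-tools, cutadapt, STAR and SAMtools on GRCm38 (mm10), called peaks in each IP library with CLIPper, compared the reads of each peak between 2 libraries and compressed overlapping peaks. The deposited values are the log2 fold of a peak between the 2 libraries, each scaled to its library, and its −log10 p, at most 400 in the deposited lists. Replicates were not pooled. The lists hold no counts, so depth is unknown, and the folds and p-values are the authors' own.

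Peaks past both thresholds, 3 and 3, were called enriched. Regions were read at the midpoint from GENCODE M21 in the order CDS, UTR, noncoding exon, intron. The labels name a later release. Place in the CDS was read in the transcript with the longest CDS. Seed words were 7 nt long, searched on the transcript strand of the GRCm38 genome in peaks extended by 25 nt, introns included, for 12 of 14 families with an entry in RefSeq's table. Peaks were matched across libraries by an overlap of at least 1 nt. Samples were grouped by GEO's labels. Pairs of values from 1 library were compared by an exact two-sided sign-flip permutation test over the 4 libraries. Python 3.11.15, pandas 2.3.3, SciPy 1.17.1 and pysam 0.24.0 were used. All 7 checks on simulated data were recovered.

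The genes named were, by rule, the 20 leading sites enriched in all libraries, the 10 genes with most listed CDS peaks, up to 4 members of each gene list, the 5 leading genes per set and direction of the direct lists, the study's targets and Ank1. A gene that the rule names is not reported here. The members and lists were chosen with earlier results of these data known. Alternatives were other thresholds, region rules, windows and overlaps, merged peaks, 10 genes left out, and each set alone. A window of fixed length, matches inside the exon, and leaving out 1 library of set 1 were added after the data were seen.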

Additional observations from a re-analysis of the deposited data

Results flagged for a closer look

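For 9 of the gene lists, the WT minus KO difference in the percent of listed CDS peaks that were enriched had opposite signs in the sets, above 0 in set 1 and below 0 in set 2. The difference between the sets was not tested, since each set has 1 library of each genotype. The set 1 difference less the set 2 difference was 17.9 percentage points for thick filament genes (17.5 in set 1 and −0.34 in set 2), 19.8 for mitochondrial oxidation (19.6 and −0.21), 23.7 for muscle enzymes and myoglobin (20.6 and −3.03) and 13.5 for glycolysis and glycogen (13.0 and −0.52). It was 15 for microRNA machinery (13.4 and −1.60), 9.92 for chaperones (8.55 and −1.37) and 8.80 for protein turnover (8.78 and −0.02). It was 2.35 for calcium handling (2.26 and −0.10) and 1.11 for the dystrophin complex and membrane (1.01 and −0.10). Several set 2 signs rest on very few enriched peaks. For protein turnover these were 1 of 332 in WT and 1 of 312 in KO, the same count. They were 1 of 840 and 2 of 929 for calcium handling, and 0 of 957 and 1 of 1013 for the dystrophin complex. Such small counts cannot show a reversal. Over all CDS peaks WT was above KO by 2.91 percentage points in set 1 and by 0.0834 in set 2, so all CDS peaks went the way of these lists in set 1 and the other way in set 2. The part of the library in these differences was not tested.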

How the results depend on the processing

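With 4 libraries, no permutation p could pass 0.05 under any setting, depth is unknown, and the authors' folds could not be recomputed from reads. No paired analysis was possible because 2 sets are too few for a paired test. The WT and KO libraries of a set were compared only as differences within the set and in the direct lists. The mean seed differences kept their sign under every alternative for miR-1/miR-206 and miR-133. With the fold threshold lowered to 1 the mean enriched share, 1.35%, became 5.24%. The mean CDS share of listed peaks, 41.7%, became 34.1% when read at the 5′ end and 27.3% for whole peaks inside 1 coding exon. The excess of enriched peaks next to the stop codon (a mean of 4.80 percentage points) became 9.45 with a fold threshold of 4 and 9.68 at the 5′ end. Over all alternatives it ran from 2.33 to 9.68.

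Direct counts, in the order WT over KO and KO over WT in set 1, then in set 2, were 3159, 128, 343 and 133 with a fold threshold of 1. With 4 they were 55, 5, 4 and 3. They were 458, 43, 50 and 24 at a −log10 p of 2 and 134, 6, 3 and 2 at 5. Among peaks also enriched over input they were 44, 0, 4 and 0. KO over WT in set 2 fell to 4 at the 5′ end, and whole peaks left 136 for WT over KO in set 1 and 8 and 3 in set 2. Leaving out replicate 1 or 2 moved the mean CDS share to 39.9% or 43.6% and the enriched share to 0.989% or 1.72%. Without WT set 1 the enriched share was 0.747%. The genes with a site enriched in all 4 libraries numbered 35, against 3 with a fold threshold of 4, 217 with 1, 19 at the 5′ end and 11 for whole peaks.

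Among families with small seed differences, signs turned. The miR-27 difference was −0.61 with a fold threshold of 4, −0.35 at a −log10 p of 5, −0.11 for whole peaks, −0.0058 without the 10 genes with most listed CDS peaks, −0.085 with 50 nt flanks, −0.095 in the fixed window, −0.078 inside the exon, −0.042 without WT set 1, and −0.14 or 0.27 without replicate 1 or 2. For miR-10 it was 0.18 with a fold threshold of 1, 0.054 at a −log10 p of 2, 0.12 with 50 nt flanks, 0.068 without KO set 1 and −0.35 without WT set 1. For miR-24 it was 0.19 at the 5′ end and 0.0057 with 50 nt flanks, and for miR-181 −0.13 with 6-nt words and −0.23 in the fixed window. The cause of these changes was not tested.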

Other observations

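Some genes of slow muscle fibres differed between the sets in their listed CDS peaks. Myh7, the slow myosin heavy chain, had 46 listed CDS peaks in WT set 1 and 48 in KO set 1, but 1 in WT set 2 and 0 in KO set 2. Myl2, the slow regulatory light chain, had 8, 8, 1 and 1 in the same order, Tnnt1, slow troponin T, had 11, 10, 3 and 3, and Tnni1, slow troponin I, had 6, 6, 2 and 1. Tnnc1 had 3, 2, 0 and 0. Tpm3 had 9, 11, 6 and 6, a smaller difference. Other genes of slow fibres had similar or higher counts in set 2. Myl3 had 7, 4, 6 and 7, Atp2a2 22, 20, 20 and 22, Myoz2 3, 7, 5 and 6, Csrp3 0, 3, 4 and 6, and Casq2 2, 4, 10 and 10. The fast gene Myh4 had 121, 173, 304 and 247. These counts are not scaled to list length, and the lists of set 2 are longer. They hold 98262 and 101633 CDS peaks, against 47821 and 42456 in set 1. An unchanged count, as in Atp2a2, is thus a smaller share of the list in set 2. These genes were picked after their values were seen, and the difference was not tested.

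Mybph, which encodes myosin binding protein H, was also picked after its values were seen. It had 10 and 11 listed CDS peaks in WT set 1 and WT set 2 against 2 and 0 in KO set 1 and KO set 2. Of its CDS peaks, 5 passed both thresholds for WT over KO in set 1, with log2 folds from 3.05 to 4.80. The overlapping set 2 peaks had log2 folds from 1.12 to 2.86, all above 0 and below the threshold. Over input, the 5 set 1 peaks had log2 folds from −0.54 to 1.55 in WT set 1, so none was enriched. Whether bound or total RNA differed was not tested.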
